A study of Mus musculus with 4 samples.

Results

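Mouse bone marrow stromal cultures (mBMSCs) are identified by a set of surface molecules, and the expression of 10 genes used for this purpose is described here in control and ZBP1-depleted cells. The genes were Nt5e, Thy1, Eng, Cd44, Alcam, Ly6a, Cd34 and Pdpn, which encode surface proteins, and Prrx1 and Gsn, which are stromal genes but encode a nuclear and a mainly cytoplasmic protein. They were found by their symbols among the 24346 genes of the expression table, and all 10 were present. The set was selected on measured values of the same comparison, with Nt5e included because it was higher after ZBP1 depletion while other stromal genes were lower. The values of the 10 genes in that comparison are therefore given as a description, with no test.

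RNA-seq was available for 4 samples of bone marrow stromal cells from wild-type C57BL/6 mice aged 3 months, which the methods give as C57BL/6J. In 2 samples the cells had been transfected with a scrambled siRNA (siScr) and in 2 with siRNA against ZBP1 (siZBP1), a sensor of Z-form nucleic acids, both with Lipofectamine RNAiMAX. The comparison asks which transcripts differ when ZBP1 is depleted in these cells. The cells were plastic-adherent marrow cells from femurs, grown as colonies and passaged, and no sort is described. The sources used here do not say whether replicates came from separate animals or cultures, so p-values may measure technical spread alone. The siRNA against ZBP1 used for sequencing is not named.

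Mesenchymal stromal cells are usually recognised by CD73 (Nt5e), CD90 (Thy1) and CD105 (Eng) on their surface together with the absence of blood cell proteins such as CD45 (Ptprc) and CD11b (Itgam). In mice Sca-1 (Ly6a), CD44 and CD166 (Alcam) are often added. These proteins do unrelated work at the membrane: CD73 makes adenosine, CD105 presents TGF-β family ligands, CD44 binds hyaluronan and CD166 joins cells, and several are also made by leukocytes or endothelium.

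Values are FPKM as deposited, that is, fragments per kilobase of a gene's transcript relative to all mapped fragments, so that levels of different genes can be compared per length. Differences between groups are those of log2(FPKM + 1), siZBP1 minus siScr, which understate the change of genes with low values. They come from limma, a linear model with moderated variances, fitted to the 11959 genes with a mean of at least 1 FPKM. All 10 stromal genes passed this filter. The FPKM of a sample summed to between 477974 and 492166. The depth is not stated, and the spacing of the lowest values placed it at 1.39 and 1.87 in siScr replicates 1 and 2 and at 1.00 and 1.61 in siZBP1 replicates 1 and 2, relative to the shallowest sample. Zbp1 itself was at 86.0 and 62.0 FPKM in siScr replicates 1 and 2 and at 11.5 and 11.6 in the siZBP1 replicates, a difference of -2.56 (SE 0.16, limma adjusted p = 0.00322).

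The cultures held transcripts of the proteins that stromal cells should lack. Ptprc was at 76.6 and 76.8 FPKM in siScr cells and at 82.7 and 88.0 in siZBP1 cells, and Adgre1, which encodes the macrophage antigen F4/80, was at 303.0 and 279.0 and at 313.1 and 319.8. These levels were above those of Nt5e, Thy1 and Eng in every sample. Among the measured blood cell markers, Cd3e, Cd79a and Itga2b stayed under 1 FPKM in all samples. The 15 macrophage markers summed to 8828 and 9947 FPKM in siScr replicates 1 and 2 and to 14322 and 13559 in siZBP1 replicates 1 and 2, with 14 of 15 higher in mean, as were 50.8% of all tested genes. Lyz2 alone was at 2814 and 3647 FPKM in siScr replicates 1 and 2 and at 5871 and 5402 in siZBP1 replicates 1 and 2. Limma at an adjusted p of 0.05 called 10 of the 15 higher, where it called 13.5% of all genes higher and 14.8% lower. The call of Lyz2 was lost after quantile normalization (difference 0.62, limma adjusted p = 0.0859). Those of Mrc1 and Lyz1 were kept under every alternative setting with all samples. The 5 blood cell markers that could be tested included 2 called higher, H2-Ab1 and Itgam. The blood cell list summed to 652.0 and 655.6 FPKM in siScr cells and to 754.6 and 747.2 in siZBP1 cells. It shares Adgre1, Itgam and Cd14 with the macrophage list, so the sums and calls of these lists are not separate observations. The 10 endothelial markers summed to between 10.9 and 11.6 FPKM, with Cldn5, Esam, Pecam1, Tek and Tie1 under 1 FPKM throughout. Vwf was at 4.36 and 5.41 FPKM in siScr cells and at 4.63 and 4.48 in siZBP1 cells. Kdr was at 2.59 and 2.30 and at 2.96 and 3.08, and neither gene was called. Cdh5, Emcn and Egfl7 had means under 1 FPKM over the 4 samples. In bulk RNA, fewer cells of a type and less RNA per cell cannot be told apart, and the part of the macrophage transcripts in the values below was not tested.

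**Figure D1:**
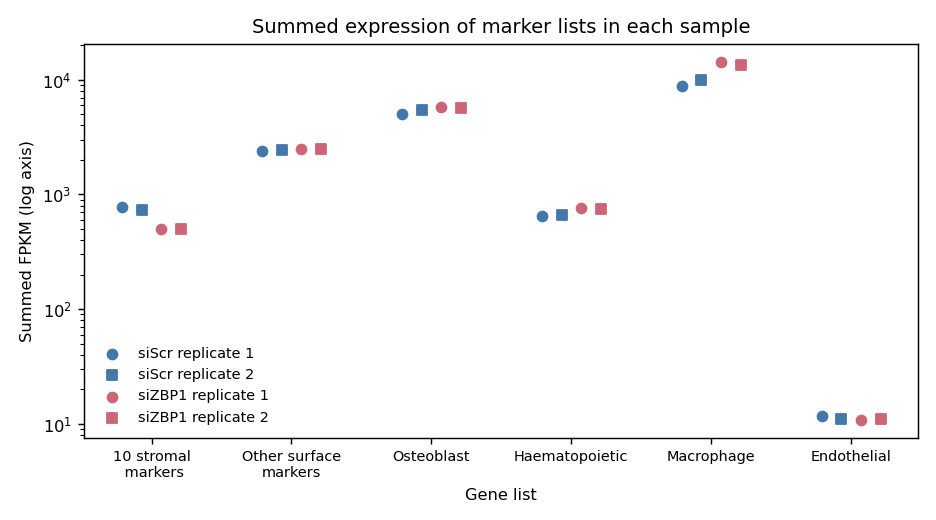
Summed FPKM (log axis) of the 10 stromal markers and of 5 marker lists, with a point for each sample (blue for siScr, red for siZBP1, circle for replicate 1, square for replicate 2). The macrophage list is the highest in every sample and lies between 13559 and 14322 in siZBP1 cells against 8828 and 9947 in siScr cells, whereas the 10 stromal markers lie at 495.6 and 496.5 against 782.7 and 731.5. A sum mostly reflects its most abundant genes, which are Lyz2 for the macrophage list and Gsn and Ly6a for the 10 stromal markers. The osteoblast sum, 5843 and 5698 in siZBP1 cells against 4993 and 5477 in siScr cells, is higher through Spp1 alone. Spp1 was at 4651 and 4447 FPKM against 1516 and 2625, whereas the other 6 osteoblast genes were called lower by limma.

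The regions before the transcription start of 4 of these genes are shown because the genes behave differently: Nt5e was the gene that was higher in siZBP1 cells beyond the replicates, Prrx1 and Gsn had the largest lower values, and Pdpn was the only gene with a match to the TCF/LEF core, through which β-catenin acts. Each holds the 250 bases before the start annotated by RefSeq on GRCm38.p6, the assembly called mm10 in the submitters' processing notes, written 5′ to 3′ on the strand of the gene. Capitals mark matches, on either strand, to the TCF/LEF core (CTTTGAA or CTTTGAT or CTTTGTA or CTTTGTT), the GC box (GGGCGG), the cAMP response element (TGACGTCA), the TATA box (TATAAA) or the E-box CACGTG. Neighbouring GC boxes overlap in Nt5e. The regions are chr9:88327359-88327608 on the plus strand for Nt5e, chr1:163313651-163313900 on the minus strand for Prrx1, chr2:35256109-35256358 on the plus strand for the first of 3 starts of Gsn, and chr4:143299565-143299814 on the minus strand for Pdpn. The Prrx1 region belongs to a start inside the gene, whose outer end on that strand is at 163315145. The bases before that outer end were not examined.
Nt5e: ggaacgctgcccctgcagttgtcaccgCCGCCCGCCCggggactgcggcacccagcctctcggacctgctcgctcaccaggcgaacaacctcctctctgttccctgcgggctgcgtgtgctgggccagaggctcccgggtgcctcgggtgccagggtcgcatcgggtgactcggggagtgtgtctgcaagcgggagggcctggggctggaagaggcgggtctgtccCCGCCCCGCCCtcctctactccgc
Prrx1: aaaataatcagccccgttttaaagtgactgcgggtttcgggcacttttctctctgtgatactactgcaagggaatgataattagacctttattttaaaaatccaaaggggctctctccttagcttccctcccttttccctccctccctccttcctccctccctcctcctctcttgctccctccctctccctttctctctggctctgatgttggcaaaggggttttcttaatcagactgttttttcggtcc
Gsn: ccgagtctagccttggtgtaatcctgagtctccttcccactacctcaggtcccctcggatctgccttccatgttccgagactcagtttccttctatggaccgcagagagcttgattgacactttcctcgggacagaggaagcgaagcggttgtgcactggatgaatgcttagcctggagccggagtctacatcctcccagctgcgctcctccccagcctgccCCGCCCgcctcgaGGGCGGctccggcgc
Pdpn: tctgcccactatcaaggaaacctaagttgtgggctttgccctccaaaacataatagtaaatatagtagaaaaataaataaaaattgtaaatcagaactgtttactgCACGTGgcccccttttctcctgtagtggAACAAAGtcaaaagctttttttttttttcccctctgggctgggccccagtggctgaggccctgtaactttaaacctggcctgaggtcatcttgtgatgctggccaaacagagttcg

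The Nt5e region was 72.0% GC, against a median of 52.4% over 32851 annotated mouse promoters of the same length, and held 4 GC box matches. The Prrx1 region, which lies inside the gene, was 47.6% GC with no match to these motifs. The Gsn region was 60.8% GC with 2 GC boxes. The Pdpn region was 43.2% GC and held a TCF/LEF core 116 bases and a CACGTG 144 bases before the start. Promoters were found for 8 of the 10 genes, all but Thy1 and Ly6a. The TCF/LEF core was in 1 of 8 genes and in 14.8% of all promoters, the GC box in 3 of 8 (Alcam, Gsn and Nt5e), or 5 of the 10 promoters of the 8 genes (Gsn has 3), and in 32.7%, and CACGTG in 1 of 8 and in 6.02%. The cAMP response element, in 1.55% of all promoters, and the TATA box, in 12.4%, had no match in these windows. A match describes the letters of the window and does not show that a factor binds there.

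The group mean was lower after ZBP1 depletion for 8 of the 10 genes and higher for 2. Both siZBP1 samples lay below both siScr samples for 7 genes (Eng, Cd44, Ly6a, Cd34, Pdpn, Prrx1 and Gsn), a pattern seen in 33.7% of all genes, and above them for Nt5e, a pattern seen in 34.7%. Thy1 and Alcam overlapped between groups. By the ratio of group means, Thy1, Prrx1 and Gsn were over 1.5-fold lower, as were 9.19% of all genes, and Nt5e was over 1.5-fold higher, as were 4.51%. The other genes lower in both siZBP1 samples, 5 in number, were under 1.5-fold. The differences ran from -1.26 for Gsn to 2.16 for Nt5e with a median of -0.35, beside a median of 0.0045 over all genes tested. These counts follow from how the genes were selected and nothing is read from them. Together the 10 genes summed to 782.7 and 731.5 FPKM in siScr replicates 1 and 2 and to 495.6 and 496.5 in siZBP1 replicates 1 and 2. Gsn and Ly6a made the largest parts of these sums.

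**Figure D2:**
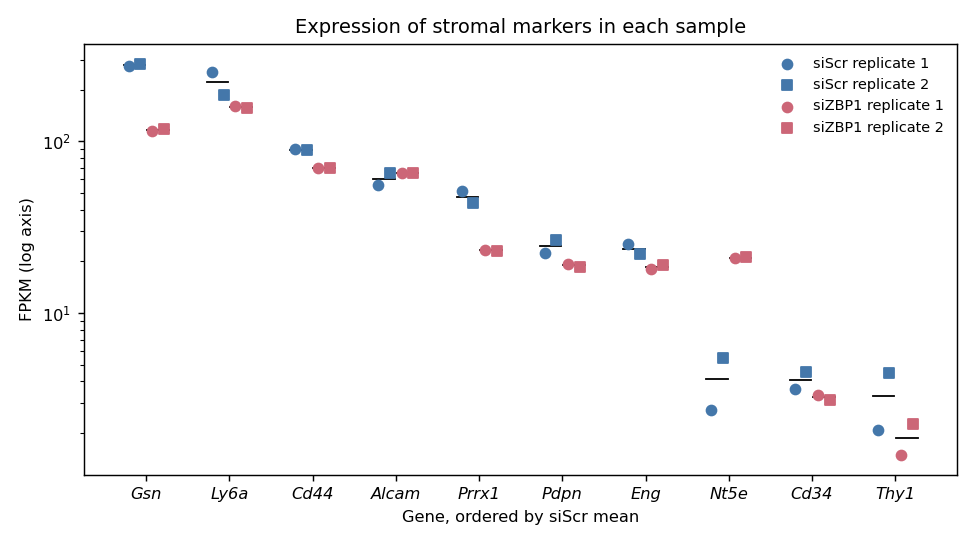
FPKM (log axis) of each gene in the 4 samples, ordered by the siScr mean, with blue for siScr, red for siZBP1, circles for replicate 1, squares for replicate 2 and short lines for the group means (n = 2). The siZBP1 points of Nt5e lie at 20.8 and 21.3 against 2.73 and 5.48 in siScr cells, and those of Thy1 and Alcam overlap with the siScr points.

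In siScr cells the order of levels was Gsn, Ly6a, Cd44, Alcam, Prrx1, Pdpn, Eng, Nt5e, Cd34 and Thy1. Pdpn and Eng overlapped between samples, as did Nt5e, Cd34 and Thy1, and the other neighbours did not. Gsn was at percentile 99.0 of all genes in the table, Prrx1 at 93.1 and Thy1 at 59.1. In siZBP1 cells Ly6a was above Gsn, Nt5e stood just below Prrx1, and Pdpn and Eng still overlapped. The 3 markers that define stromal cells by convention were thus not at like levels, since Eng was at 23.6 FPKM in siScr cells while Nt5e and Thy1 were at 4.11 and 3.28.

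Nt5e, the ectoenzyme that converts extracellular AMP to adenosine, lies on chromosome 9 from 88327609 to 88372089 on the plus strand of GRCm38 and has 1 annotated coding transcript of 9 exons. Its level was 2.73 FPKM in siScr replicate 1 and 5.48 in siScr replicate 2, and 20.8 and 21.3 in the siZBP1 replicates. Both siZBP1 samples were above both siScr samples. In mean it went from 4.11 ± 1.94 FPKM (SD, n = 2) to 21 ± 0.373 (SD, n = 2), which is 5.12-fold, with a difference of 2.16 (SE 0.27). The gene moved from rank 9432 to rank 3834 of the 24346 genes by mean FPKM, and its difference had rank 45 from the largest positive value among the tested genes. The size of the difference depended on the control used: leaving out siScr replicate 1 gave 1.77 and leaving out siScr replicate 2 gave 2.56.

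Over the 4 samples, the genes nearest to Nt5e in log2(FPKM + 1) relative to the siScr mean were Nxpe5, Fxyd2 and 1700007K13Rik, at Euclidean distances of 0.25, 0.39 and 0.68. This distance mostly measures the rise in siZBP1 cells, for which Nt5e was included. It therefore returns genes with a rise of like size, and shared regulation was not tested. Nxpe5 was at 4.76 and 9.65 FPKM in siScr cells and at 30.1 and 30.4 in siZBP1 cells. Its siScr replicate 2 was above replicate 1, as for Nt5e and Fxyd2 but not for 1700007K13Rik. The siScr replicates enter the distance too, so a like order follows in part from the choice. Fxyd2, a regulator of the sodium pump, was at 5.61 and 9.32 FPKM and at 43.5 and 30.5, and 1700007K13Rik at 1.42 and 1.26 and at 8.93 and 8.05.

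Of 18 genes that supply, sense or remove extracellular adenosine, 6 were expressed highly enough to test, 3 were called lower and the other 3 were not called, with a median difference of -0.35. Over all genes 14.8% were called lower and 13.5% higher, and these shares stand beside each list below. Alpl, an ectophosphatase that also hydrolyses AMP and is a marker of osteoblasts, fell from 243.3 and 156.6 FPKM to 25.7 and 23 (difference -2.96, SE 0.22, limma adjusted p = 0.00388). Slc29a1, an equilibrative transporter that carries adenosine into cells, fell from 92.2 and 74.8 to 30.8 and 35.6 (difference -1.30, SE 0.13, limma adjusted p = 0.00589). Adk, the kinase that returns adenosine to AMP, fell from 18.5 and 17.9 to 12.8 and 13.0 (difference -0.46, SE 0.053, limma adjusted p = 0.00829). Entpd1 (CD39), which makes the AMP that CD73 uses and is named for this role after its values were seen, was at 28 and 30.2 FPKM in siScr cells and at 30.7 and 31.4 in siZBP1 cells (difference 0.09, SE 0.056, limma adjusted p = 0.283). No adenosine receptor reached a mean of 1 FPKM over the 4 samples.

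Thy1 and Ly6a encode small proteins held in the membrane by a lipid anchor. Thy1, on chromosome 9 from 44043384 to 44048579 on the plus strand, was at 2.06 and 4.49 FPKM in siScr replicates 1 and 2 and at 1.48 and 2.24 in siZBP1 replicates 1 and 2. The groups overlapped, since siZBP1 replicate 2 was above siScr replicate 1. Its mean went from 3.28 ± 1.72 FPKM (SD, n = 2) for siScr to 1.86 ± 0.535 (SD, n = 2) for siZBP1, and the difference of -0.53 (SE 0.32) became -0.11 without siScr replicate 2 and -0.95 without siScr replicate 1.

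Ly6a, which encodes Sca-1, lies on chromosome 15 from 74994877 to 74998031 on the minus strand. Its level was 254.4 and 186.9 FPKM in siScr replicates 1 and 2 and 160.1 and 155.6 in siZBP1 replicates 1 and 2. Both siZBP1 samples were below both siScr samples, and siScr replicate 2 was the nearer of the controls. From siScr to siZBP1 cells the mean went from 220.6 ± 47.7 FPKM (SD, n = 2) to 157.8 ± 3.21 (SD, n = 2), with a difference of -0.46 (SE 0.15) that was -0.24 without siScr replicate 1. Ly6a has relatives in the Ly6 family, and how any reads shared with them were counted is not stated.

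Of 10 genes of the Ly6 family listed beside Ly6a, 9 were in the table and 3 could be tested, with a median difference of -0.35. Ly6c1, a marker of monocytes and endothelium that shares most of its sequence with Ly6c2, was the gene called lower, from 34.5 and 26.7 FPKM to 21.5 and 19.0 (difference -0.57, SE 0.14, limma adjusted p = 0.0421). The other 2, Ly6e and Lynx1, had differences of -0.35 (SE 0.098, limma adjusted p = 0.0574) and -0.27 (SE 0.086, limma adjusted p = 0.0841).

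Eng, the endoglin co-receptor for TGF-β family ligands, lies on chromosome 2 from 32646595 to 32682669 on the plus strand, with 3 coding transcripts. Its level was 25.4 and 21.9 FPKM in siScr replicates 1 and 2 and 17.9 and 19.0 in siZBP1 replicates 1 and 2. Both siZBP1 samples were lower, by a narrow margin. The mean went from 23.6 ± 2.42 FPKM (SD, n = 2) to 18.5 ± 0.743 (SD, n = 2), a difference of -0.34 (SE 0.085).

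Of 17 genes of endoglin signalling, 14 could be tested: 5 were called lower and 2 higher, with a median difference of -0.08. Tgfb3, a TGF-β ligand, fell from 39.7 and 40.4 FPKM to 7.09 and 7.78 (difference -2.28, SE 0.063, limma adjusted p = 0.00150). Tgfbr2, the receptor that binds TGF-β directly, fell from 83.1 and 84.6 to 43.4 and 44.4 (difference -0.92, SE 0.040, limma adjusted p = 0.00221), and Tgfbr3, the co-receptor betaglycan, from 4.89 and 3.77 to 2.59 and 2.46 (difference -0.59, SE 0.13, limma adjusted p = 0.0366). The others called lower were Id3, a target of BMP signalling, and Mmp14, the protease that sheds endoglin. The type I receptor Tgfbr1 and the type II receptor Bmpr2 rose, by 0.28 (SE 0.043, limma adjusted p = 0.0146) and 0.22 (SE 0.052, limma adjusted p = 0.0400).

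Cd44, the main hyaluronan receptor, lies on chromosome 2 from 102811141 to 102901669 on the minus strand. It has 8 coding transcripts of 9 to 19 exons, which differ in their variable exons and are not separated by FPKM per gene. Its level was 90.0 and 88.7 FPKM in siScr cells and 69.5 and 69.9 in siZBP1 cells. Both groups were tight and did not overlap. In mean it went from 89.4 ± 0.949 FPKM (SD, n = 2) to 69.7 ± 0.268 (SD, n = 2), a difference of -0.35 (SE 0.037).

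Of 16 genes that make, break or bind hyaluronan or act with CD44, 12 could be tested: 4 were called lower and 3 higher, with a median difference of -0.07. Cemip, a hyaluronan-degrading protein, fell from 64.5 and 60.6 FPKM to 16.8 in both siZBP1 samples (difference -1.84, SE 0.051, limma adjusted p = 0.00150). Its relative Tmem2, the cytoskeletal linker Rdx and the protease Mmp14 also fell. Spp1, which encodes osteopontin, a CD44 ligand made by osteoblasts and macrophages, rose from 1516 and 2625 FPKM to 4651 and 4447 (difference 1.19, SE 0.27, limma adjusted p = 0.0356). The hyaluronidase Hyal1 rose from 4.64 and 4.04 to 7.86 and 6.26 (difference 0.59, SE 0.13, limma adjusted p = 0.0348), and Hyal2 was also called higher.

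Alcam, an adhesion molecule of the immunoglobulin family that binds itself and CD6, lies on chromosome 16 from 52248996 to 52453081 on the minus strand. It was at 55.5 and 65.2 FPKM in siScr replicates 1 and 2 and at 65.3 and 65.1 in siZBP1 replicates 1 and 2. The siZBP1 samples and siScr replicate 2 were alike, and siScr replicate 1 was lower. The siScr mean of 60.4 ± 6.90 FPKM (SD, n = 2) stood beside a siZBP1 mean of 65.2 ± 0.118 (SD, n = 2), and the difference of 0.11 (SE 0.085) became -0.00045 without siScr replicate 1.

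Of 17 further adhesion genes, among them partners of Thy1, Alcam, Cd34 and Pdpn, 12 could be tested: 4 were called lower and 3 higher, with a median difference of -0.11. Nrcam, an adhesion molecule of the immunoglobulin family best known from neurons, fell from 6.43 and 5.59 FPKM to 1.57 and 1.45 (difference -1.48, SE 0.11, limma adjusted p = 0.00377). The fibronectin receptor subunit Itga5 fell from 86.0 and 77.4 to 58.0 and 60.5 (difference -0.46, SE 0.064, limma adjusted p = 0.0121), and L1cam and Cd9 were also called lower. The integrin subunits that rose were Itgb3, Itgav and Itgb5, which pair in vitronectin receptors. Itgb3, a subunit also found on osteoclasts and platelets, went from 5.41 and 8.44 FPKM to 12.9 in both siZBP1 samples (difference 0.84, SE 0.19, limma adjusted p = 0.0380).

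Cd34 and Pdpn encode heavily glycosylated mucin-like proteins. Cd34, a marker of blood progenitors and endothelium that is also found on some mouse stromal cells, lies on chromosome 1 from 194938821 to 194961292 on the plus strand. It was at 3.61 and 4.54 FPKM in siScr cells and at 3.34 and 3.10 in siZBP1 cells. The siZBP1 samples were both lower, but the higher of them was only 7.56% below the lower siScr sample. From siScr to siZBP1 cells the mean went from 4.07 ± 0.657 FPKM (SD, n = 2) to 3.22 ± 0.170 (SD, n = 2), a difference of -0.26 (SE 0.12).

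Pdpn, which encodes podoplanin, the ligand of the platelet receptor CLEC-2 and a protein of fibroblastic stroma, lies on chromosome 4 from 143267409 to 143299564 on the minus strand. It was at 22.5 and 26.5 FPKM in siScr cells and at 19.4 and 18.6 in siZBP1 cells. Both siZBP1 samples were lower than both siScr samples. The mean went from 24.5 ± 2.85 FPKM (SD, n = 2) to 19.0 ± 0.580 (SD, n = 2), a difference of -0.34 (SE 0.090), about that of Eng and Cd44.

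Prrx1, a homeobox factor of limb and skeletal mesenchyme, lies on chromosome 1 from 163245119 to 163315145 on the minus strand. Its level was 51.6 and 43.5 FPKM in siScr replicates 1 and 2 and 23.2 and 23.1 in siZBP1 replicates 1 and 2. The siZBP1 samples were far below both controls, the higher of them lying 46.6% below the lower siScr sample. In mean it went from 47.5 ± 5.73 FPKM (SD, n = 2) to 23.2 ± 0.110 (SD, n = 2), which is 2.05-fold lower, with a difference of -1.0 (SE 0.090).

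Of 21 further transcription factors of mesenchymal cells, 13 could be tested. Limma called 6 lower and did not call the other 7, with a median difference of -0.48. Prrx2, the paralogue of Prrx1, fell from 40.7 and 29.3 FPKM to 14.1 and 13.9 (difference -1.24, SE 0.16, limma adjusted p = 0.00999). Snai2, a zinc finger repressor of epithelial genes, fell from 34.4 and 28.1 to 16.2 and 18.4 (difference -0.81, SE 0.12, limma adjusted p = 0.0127). Foxc1, a forkhead factor of marrow reticular cells, fell from 8.0 and 8.33 to 4.80 and 4.70 (difference -0.67, SE 0.072, limma adjusted p = 0.00717). Snai1, Zeb1 and Ebf1 were also called lower.

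Gsn, which encodes gelsolin, a protein that severs and caps actin filaments, lies on chromosome 2 from 35256359 to 35307902 on the plus strand. Its level was 274.9 and 284.2 FPKM in siScr cells and 114.5 and 118.6 in siZBP1 cells. Both groups were tight and far apart. From siScr to siZBP1 cells the mean went from 279.6 ± 6.56 FPKM (SD, n = 2) to 116.6 ± 2.88 (SD, n = 2), which is 2.40-fold lower, with a difference of -1.26 (SE 0.042). Gsn moved from rank 243 to rank 613 by mean FPKM and had the largest negative difference among the 10 genes.

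Of 7 other genes of the gelsolin family, 3 could be tested, with a median difference of -0.11. Svil, which encodes the membrane-associated supervillin, fell from 9.99 and 8.54 FPKM to 6.5 and 6.90 (difference -0.41, SE 0.096, limma adjusted p = 0.0389). Capg, an actin-capping protein abundant in macrophages, rose from 275.4 and 291.8 to 329.6 and 324.6 (difference 0.21, SE 0.046, limma adjusted p = 0.0349). Flii had a difference of -0.11 (SE 0.047, limma adjusted p = 0.158).

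**Figure D3:**
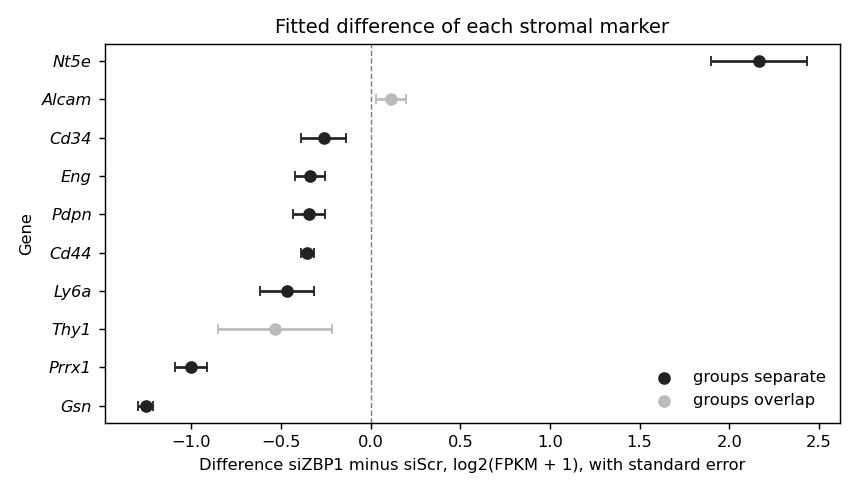
Difference of log2(FPKM + 1), siZBP1 minus siScr, for each of the 10 genes, with bars for the limma standard error. Black points are genes whose groups do not overlap and grey points, Alcam at 0.11 and Thy1 at -0.53, are those that overlap. Nt5e is at 2.16, and Prrx1 at -1.0 and Gsn at -1.26 lie apart from the other lower genes.

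Of 20 other surface proteins of stromal and perivascular cells, 19 could be tested: 6 were called lower and 5 higher, with a median difference of -0.06. Cd248, the pericyte and fibroblast protein endosialin, fell from 16.1 and 13.6 FPKM to 2.29 and 2.62 (difference -2.19, SE 0.11, limma adjusted p = 0.00242). Cspg4, the pericyte proteoglycan NG2, fell from 2.95 and 2.62 to 0.918 and 0.979 (difference -0.96, SE 0.12, limma adjusted p = 0.00940). Pdgfrb, Cd9, Cdh2 and Cdh11 were also called lower. Cd200, an immunoglobulin family protein whose receptor is on myeloid cells, rose from 6.22 and 7.57 to 12.8 and 13.9 (difference 0.87, SE 0.11, limma adjusted p = 0.00952), and Cd81, Icam1, Cd47 and Cd151 were called higher. The sum of the list was nearly even, at 2386 and 2465 FPKM in siScr cells and at 2468 and 2479 in siZBP1 cells. Most of it came from Cd63, Itgb1 and Cd9, so genes at low levels such as Cd248, Cspg4 and Cd200 hardly enter it. Of 7 osteoblast genes, 6 were called lower and Spp1 higher, with a median difference of -1.26.

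**Figure D4:**
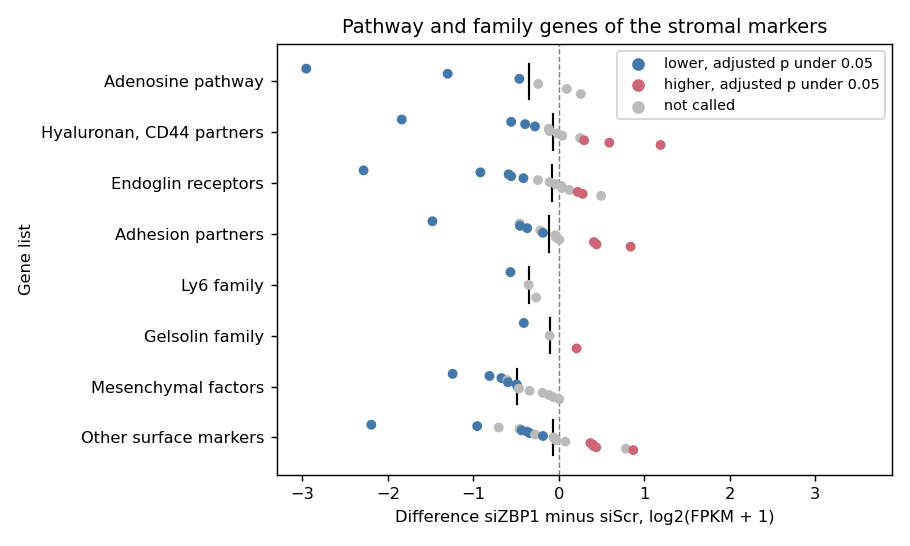
Difference of log2(FPKM + 1), siZBP1 minus siScr, of each tested gene in the 8 lists of pathway and family genes, with a black line at the median of a list. Blue points were called lower and red points higher by limma at an adjusted p of 0.05, and grey points were not called. The mesenchymal factors have 6 blue points and a median of -0.48, and the other surface markers have 6 blue and 5 red points and a median of -0.06.

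The 8 lists together held 78 different tested genes. Beside shares of 14.8% lower and 13.5% higher over all genes, limma called 28 of the 78 lower and 14 higher. These calls rested on having both siZBP1 samples. Without siZBP1 replicate 1, 2 were called lower and 0 higher, while 27 and 10 had an unadjusted p under 0.05, and the counts without siZBP1 replicate 2 were equal to these. Without siScr replicate 1, 16 were called lower and 8 higher, and without siScr replicate 2, 26 and 12. With all 4 samples, 15 of these 42 calls were lost under at least 1 other setting, namely those of Bmpr2, Capg, Cd47, Cd81, Cd9, Hyal1, Hyal2, Itgb3, L1cam, Ly6c1, Rdx, Spp1, Svil, Tgfbr3 and Tmem2.

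The replicates of a group were compared as well, which played no part in selecting the genes. The higher siScr replicate was 1.18-fold the lower in the median of the 10 genes, against 1.07-fold over all tested genes. The corresponding values for the siZBP1 replicates were 1.03-fold and 1.06-fold. The siScr ratio was the larger for 9 of the 10 genes, all but Gsn, as it was for 56.1% of all genes. Thy1 and Nt5e had the widest siScr ratios, 2.18 and 2.0, and Thy1 also had the widest siZBP1 ratio, 1.51. A siScr ratio over 1.5 was found in 4.93% of all genes and a siZBP1 ratio over 1.5 in 3.31%. Neither siScr replicate was the higher throughout: replicate 1 was higher for Eng, Cd44, Ly6a and Prrx1 and replicate 2 for the other 6 genes. Replicate 2, in which Zbp1 was the lower, was nearer to the siZBP1 mean than replicate 1 for 6 of the 10 genes, as for 57.6% of all genes. An exact permutation test would have a smallest two-sided p of 0.333 for any gene in this design of 2 against 2.

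**Figure D5:**
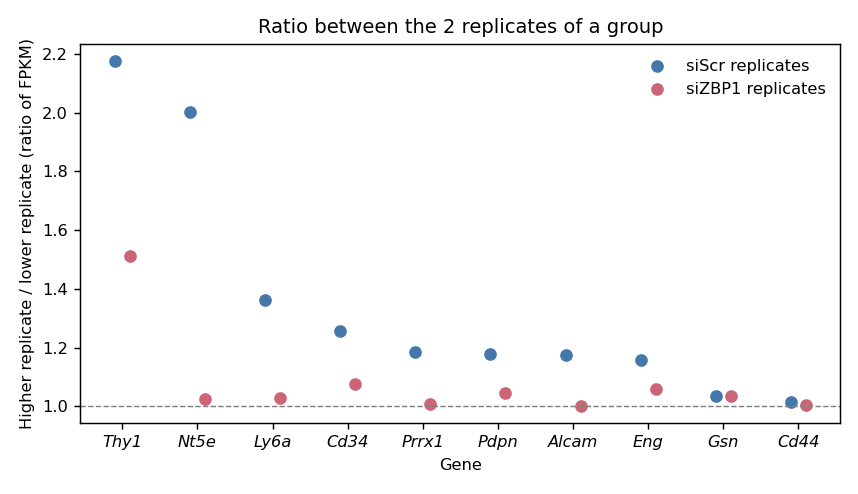
Ratio of the higher to the lower FPKM between the 2 replicates of a group for each of the 10 genes, with blue points for siScr, red points for siZBP1 and a dashed line at equality. The siScr ratios of Thy1 (2.18) and Nt5e (2.0) stand above the rest, and among the siZBP1 ratios that of Thy1 (1.51) does.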

How the data were processed

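The deposited values are FPKM per gene and sample. According to the methods, the authors prepared TruSeq libraries (from mRNA, per the labels), mapped the reads with Tophat to mm10 and extracted FPKM with HTSeq, whereas the submitters' processing notes name TopHat and Cufflinks. The annotation, strand setting and filters are not given in the sources used here. Mean columns equalled replicate means and were not used. Read numbers are unknown, so no counting interval is given.

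In R 4.3.3, limma 3.58.1 (variance trend on) was fitted to log2(FPKM + 1) of the 11959 genes with a mean of at least 1 FPKM, siZBP1 against siScr, with Benjamini-Hochberg adjustment over all of them and calls at 0.05. Groups came from the sample labels. Python 3.11.15, pandas 2.3.3, numpy 2.4.6 and matplotlib 3.10.9 were used. Gene positions came from RefSeq, and strands, transcripts and exons from GENCODE M21, on GRCm38. The code was tested on simulated data.

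The 10 genes, the 8 lists of related genes and the 4 cell type lists (blood cell, macrophage, endothelial, osteoblast) were chosen with earlier results of these data known. The genes named were the 10 genes, Zbp1, up to 3 called genes of each related list by the largest difference, and the 3 genes nearest to Nt5e. All other genes in the text were named after their values were seen. Same-numbered samples did not deviate together (correlation over genes -0.063). Some marker genes are not reported here.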

Additional observations from a re-analysis of the deposited data

How the results depend on the processing

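The differences of the 10 genes kept their sign in all 118 alternative values but 1, Alcam without siScr replicate 1, and 1 value moved by more than the spread between replicates, that of Gsn after quantile normalization. Many of these values had little or no room to move. The choice of filter, the variance trend and the replicate block leave a gene's difference as it is. Leaving out a sample shifts it only by a fixed part of the gap between that group's replicates. Under every setting the median lay between -0.37 and -0.30. It was taken over the 10 genes, except that a required mean of at least 5 FPKM removed Thy1 and Cd34. After scaling by median ratios, 8 genes also had separate groups. The difference of Nt5e was 2.41 and 2.44 with pseudocounts of 0.1 and 0.01. The counts of genes called over the whole table depended on which samples were kept. With a sample left out in turn they ran from 23 to 1297 lower and from 22 to 1019 higher, against 1766 and 1618 with all samples, and were smallest without siZBP1 replicate 1 or siZBP1 replicate 2. In such fits a lone sample is assumed to vary like the other group.

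With a sample left out, the related lists had the following numbers called: adenosine 0 to 3 lower, hyaluronan 1 to 3 lower and 0 to 1 higher, endoglin 1 to 5 lower and 0 to 2 higher, adhesion 0 to 2 lower and 0 to 3 higher, Ly6 0 to 2 lower, gelsolin 0 to 1 lower and 0 to 1 higher, mesenchymal factors 0 to 5 lower, and other surface markers 0 to 6 lower and 0 to 5 higher. Over the 8 lists, 27 genes lower and 10 higher still had an unadjusted p under 0.05 in limma without siZBP1 replicate 1.

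Without the filter on low values, 1 adenosine gene (Adora3) was called higher, 0 hyaluronan genes and 1 endoglin gene were called higher, 2 adhesion genes and 0 Ly6 genes lower, and 0 gelsolin genes higher. Without a variance trend, 2 hyaluronan genes and 0 Ly6 genes were called lower, and 1 endoglin, 0 gelsolin and 3 other surface marker genes higher. With a mean of at least 5 FPKM, 2 adhesion and 2 Ly6 genes were called lower, quantile normalization gave 2 adhesion genes lower, and either smaller pseudocount gave 2 Ly6 genes lower. The fit with the replicate number as a term (replicate block) called 1654 genes lower and 1465 higher, with 2 adhesion genes lower and 0 gelsolin genes higher. Whether the numbers pair the samples is not stated in the sources used here. The cause of these changes was not tested. For the named genes of all lists together with Zbp1 and the 3 genes nearest to Nt5e, 237 results with all samples were unchanged in call and 15 lost it. With a sample left out, more of their calls were lost than kept. No result changed direction. The small number of samples, the unknown depth and the unstated annotation limit all values.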

Other observations

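Some genes of adenosine signalling lay under the mean of 1 FPKM required for the test, and their values are given without a test. Adora3, an adenosine receptor, was at 0 and 0.367 FPKM in siScr replicates 1 and 2 and at 1.14 and 1.40 in siZBP1 replicates 1 and 2. Entpd3, which hydrolyses extracellular ATP, was at 0.775 and 1.06 FPKM in siScr cells and at 0.0830 and 0.0345 in siZBP1 cells. Adora2b was at 0.680 and 0.925 FPKM in siScr cells and at 1.01 and 1.25 in siZBP1 cells. Adora1 and Entpd8 were listed at 0 in all samples. Of the marrow stromal markers, Lepr, also under this mean, was at 1.28 and 0.859 FPKM in siScr cells and at 0.563 and 0.414 in siZBP1 cells. Pdgfra, which was tested and not called (limma adjusted p = 0.0813), was at 3.97 and 2.36 FPKM in siScr cells and at 1.72 and 1.31 in siZBP1 cells.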
